A study of Mus musculus with 21 samples.

Results

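The difference between regulatory T cells (Tregs) and conventional T cells (Tconvs) in the spleen was set against the same difference in non-draining lymph nodes (NDLN), gene by gene. The comparison uses the 12 libraries of these 4 groups, 3 libraries in each, of 21 libraries in the series, and follows all 12744 genes that passed a filter on low counts, of 49510 in the table. Its measure is a difference of differences: the log2 fold change of spleen Tregs over spleen Tconvs, minus the log2 fold change of NDLN Tregs over NDLN Tconvs. It is positive where the Treg-over-Tconv ratio is greater in the spleen, and near 0 where both organs share it. The comparison itself sets these 4 groups. The other libraries of the series were left out of the fit after an earlier look at these data, in which some of them stood apart. A fit on all 21 libraries was an alternative.

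The spleen Tregs, spleen Tconvs, NDLN Tregs and NDLN Tconvs all came from 8-week-old Foxp3-GFP mice, in which a green fluorescent reporter marks cells that express Foxp3, and all were taken 7 days after myocardial infarction. Magnetic enrichment was followed by flow sorting straight into lysis buffer, and a SMARTer ultra-low-input kit made the cDNA, so each library is a bulk sample of sorted cells. The infarction and the reporter are shared by every group, and the remaining 9 libraries of the series, from heart and from the node that drains it, were not used in the main comparison. The labels name neither the node sampled as non-draining nor whether replicates came from separate mice, so p-values cover only how libraries of a group differ, and some of that spread may be technical. In bulk samples, fewer cells of a type and less RNA per cell cannot be told apart.

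Tregs restrain immune responses and are maintained by the transcription factor Foxp3, together with a set of surface receptors such as CTLA-4, GITR and OX40 and a high need for IL-2. Tconvs hold naive and memory helper cells that supply help through CD40 ligand and cytokines. Spleen and lymph nodes are both sites where T cells circulate and meet antigen, but the spleen filters blood and contains red pulp rich in red cells and macrophages, while nodes filter lymph.

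The libraries held between 14515387 and 28048570 counts. At least 1 count was seen for 10587 to 13702 genes in spleen Tregs, 10167 to 13059 in spleen Tconvs, 11005 to 12430 in NDLN Tregs and 9469 to 10991 in NDLN Tconvs. Of the genes tested, 253 had no count in any of the 3 spleen Treg libraries (1.99%), 542 in spleen Tconvs (4.25%), 478 in NDLN Tregs (3.75%) and 1251 in NDLN Tconvs (9.82%). Replicates of a group correlated across genes with Pearson's r of 0.612 to 0.746, and the common dispersion of 2.10, a biological coefficient of variation of 1.45, was large. The T cell receptor subunit gene Cd3e stood between 46.1 and 239 CPM in all 12 libraries, and the coreceptor gene Cd4 between 11.8 and 136. CPM means counts scaled to a common library size with TMM factors. Transcripts of other cell types moved with the groups, as the plot of library measures shows.

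**Figure D1:**
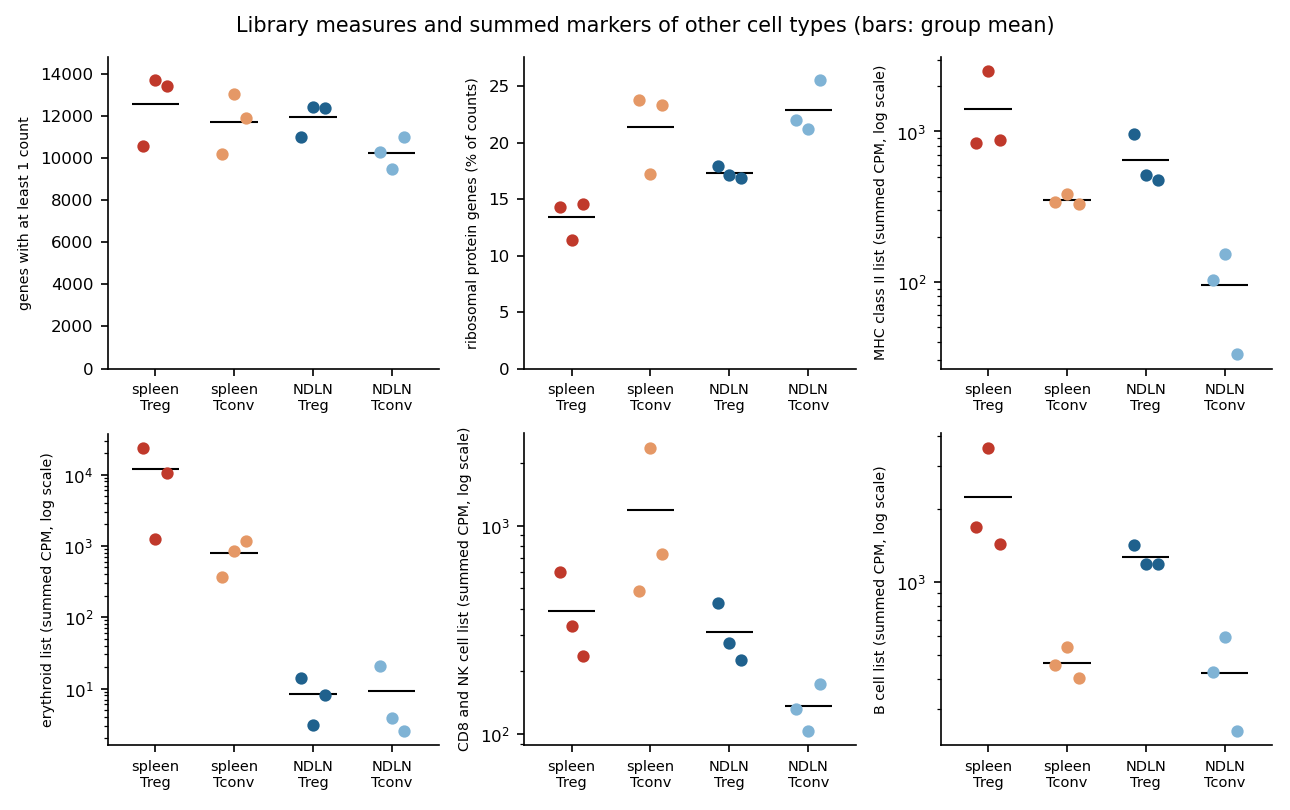
Genes with at least 1 count, ribosomal protein genes (% of counts), and summed CPM without TMM factors (log scale) of the MHC class II, erythroid, CD8 and NK cell, and B cell marker lists in each of the 12 libraries, with group means as bars. NDLN Tconv libraries sit lowest for MHC class II, between 32.9 and 152, and the erythroid sum separates spleen (361 to 23822) from NDLN libraries (2.55 to 20.9).

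Taken gene by gene, no gene passed as having a Treg-Tconv difference that departed between spleen and NDLN. edgeR's quasi-likelihood test called 0 of 12744 genes (0%) at an adjusted p under 0.05, while 645 had an unadjusted p under 0.05 (5.06%), of which 228 were positive (1.79%) and 417 negative (3.27%). limma-voom also called 0 (0%), and DESeq2 called 490 (3.84%), 159 positive (1.25%) and 331 negative (2.6%). Of these 490, 468 (95.5%) had a group with at most 3 counts over its libraries, against 2551 of all 12744 genes tested (20.02%). The median size of the difference of differences was 1.13 on the log2 scale over all genes and its median standard error (SE) 2.54. Among the 1386 genes with a mean of at least 100 CPM these were 0.37 and 0.50, so precision was better for well-expressed genes.

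Within each organ edgeR called 8 genes (0.0628% in the spleen and 0.0628% in NDLN), 6 higher (0.0471%) and 2 lower (0.0157%) in Tregs. The average Treg-Tconv difference over both organs, which uses all 12 libraries at once, had 140 genes called (1.1%), 83 higher (0.651%) and 57 lower (0.447%) in Tregs. Of the 83, 82 had the same sign in both organs, and in 72 every Treg library stood above every Tconv library of its own organ, in both organs. Of the 57, all 57 had the same sign in both organs, and 55 showed no overlap in either. These genes were chosen by the average over the same libraries, which favours equal signs and separate groups, so these counts do not test sharing. For the difference of differences, 26 of the 83 and 8 of the 57 had an unadjusted edgeR p under 0.05 (5.06% of all genes). Over all genes tested, 297 stood higher (2.33%) and 197 lower (1.55%) in every Treg library of both organs. Only 13 (0.102%) stood wholly higher in spleen Tregs and wholly lower in NDLN Tregs, and 17 (0.133%) the reverse. The 2 organs share no libraries, and across genes their differences correlated with Pearson's r of 0.270 over all 12744 genes, 0.571 over the 4568 with a mean of at least 20 CPM and 0.699 over the 1386 with at least 100, as a description across genes, which are not independent.

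**Figure D2:**
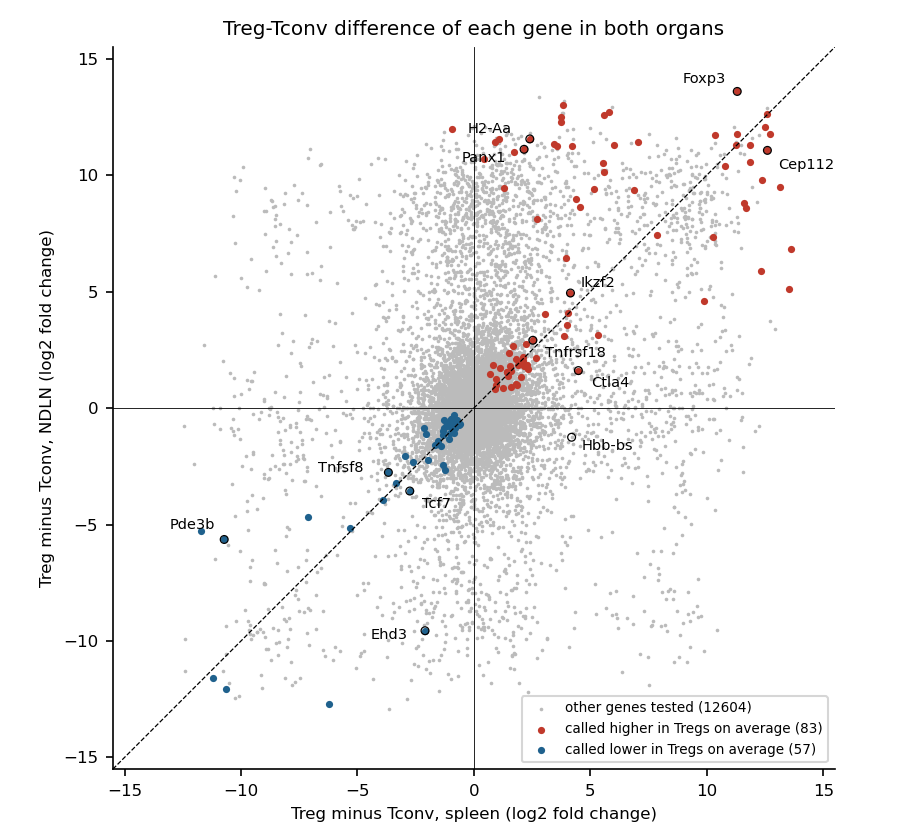
Each point is a gene, with the log2 fold change of spleen Tregs over spleen Tconvs on the x axis and of NDLN Tregs over NDLN Tconvs on the y axis; the dashed line marks equal differences, red and blue mark the 83 genes called higher and the 57 called lower in Tregs on average. All but 1 of the 140 called genes have the same sign on both axes, which their choice by the average favours. Genes far above the line such as H2-Aa and Panx1 had next to no counts in NDLN Tconvs, where the fitted fold change depends on the prior count.

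Genes called in both organs separately numbered 5 (0.0392%): Foxp3, Ikzf2, Tnfrsf18 and Cep112 were higher in Tregs, and the predicted gene Gm17828 was lower. Foxp3, the gene that defines Tregs and by whose reporter they were sorted, stood at 77.7, 99.7 and 67.0 CPM in spleen Tregs and had 2 counts in all in spleen Tconvs. In NDLN Tregs it stood at 36.9, 92.8 and 68.1 CPM, and it had no count in NDLN Tconvs. The groups did not overlap in either organ, which checks the sort in all 12 libraries. The ratio was 2936 in the spleen (95% counting interval 813 to 24242), and in NDLN it was at least 1245-fold higher against a floor of 3 counts over the group (adjusted p 0.0104 and 0.0038). The difference between organs did not pass (unadjusted p = 0.166, adjusted p = 0.946 by edgeR), and the spleen call was lost without spleen Tconv replicate 1 (adjusted p = 0.0736).

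Ikzf2 encodes Helios, a zinc finger factor enriched in Tregs (chr1:69531214-69687245 on GRCm38, minus strand). It stood at 764, 838 and 1456 CPM in spleen Tregs and 33.2, 97.9 and 41.8 in spleen Tconvs. In NDLN it had 925, 1292 and 1828 CPM in Tregs and 63.3, 36.3 and 32.3 in Tconvs. It was thus 17.7-fold higher in spleen Tregs and 30.7-fold higher in NDLN Tregs, with no overlap in either organ. The log2 fold change was 4.15 (SE 0.49, adjusted p = 0.0159) in the spleen and 4.94 (SE 0.51, adjusted p = 0.0038) in NDLN. Their difference, -0.79 (95% interval -2.14 to 0.55), did not pass. Without spleen Tconv replicate 1 or 3 the spleen call was lost (adjusted p 0.082 and 0.0846), as it was for Tnfrsf18 (0.0971 and 0.114).

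Tnfrsf18, which encodes the costimulatory receptor GITR (chr4:156026164-156028895, plus strand), stood at 1238, 1114 and 539 CPM in spleen Tregs and 160, 204 and 136 in spleen Tconvs. In NDLN the levels were 939, 885 and 715 CPM in Tregs and 136, 115 and 87.0 in Tconvs. All Treg libraries lay above all Tconv libraries of both organs. The difference was 5.78-fold in the spleen (adjusted p = 0.0191) and 7.52-fold in NDLN (adjusted p = 0.00402), and the difference of differences of -0.38 had a 95% interval of -1.31 to 0.55. Of the genes called in both organs, Ikzf2, Tnfrsf18 and Gm17828 alone had more than 3 counts in every group. Gm17828 had 2.27, 1.31 and 1.69 CPM in spleen Tregs against 65.6, 28.3 and 119.6 in spleen Tconvs, and 1.69, 2.07 and 3.13 in NDLN Tregs against 60.1, 77.2 and 104 in NDLN Tconvs. Its log2 fold change was -5.34 in the spleen and -5.13 in NDLN, a difference of -0.21 (95% interval -2.08 to 1.66).

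Cep112, a centrosomal protein gene (chr11:108425192-108860615, plus strand), was detected almost solely in Tregs. It stood at 41.1, 30.9 and 27.4 CPM in spleen Tregs and had no count in spleen Tconvs, at least 796-fold higher. In NDLN it stood at 33.1, 74.0 and 44.8 CPM in Tregs and had 1 count in Tconvs, a ratio of 2867 (95% counting interval 515 to 113241). The adjusted p was 0.0285 in the spleen and 0.0423 in NDLN. In each organ the call was lost in 8 of the 12 repeats without 1 library: without any of the 6 Treg libraries, and without replicate 1 or 3 of that organ's Tconvs (adjusted p 0.057 or more, up to 0.172 in the spleen and 0.295 in NDLN). Its call on the average over both organs was kept in all 12.

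**Figure D3:**
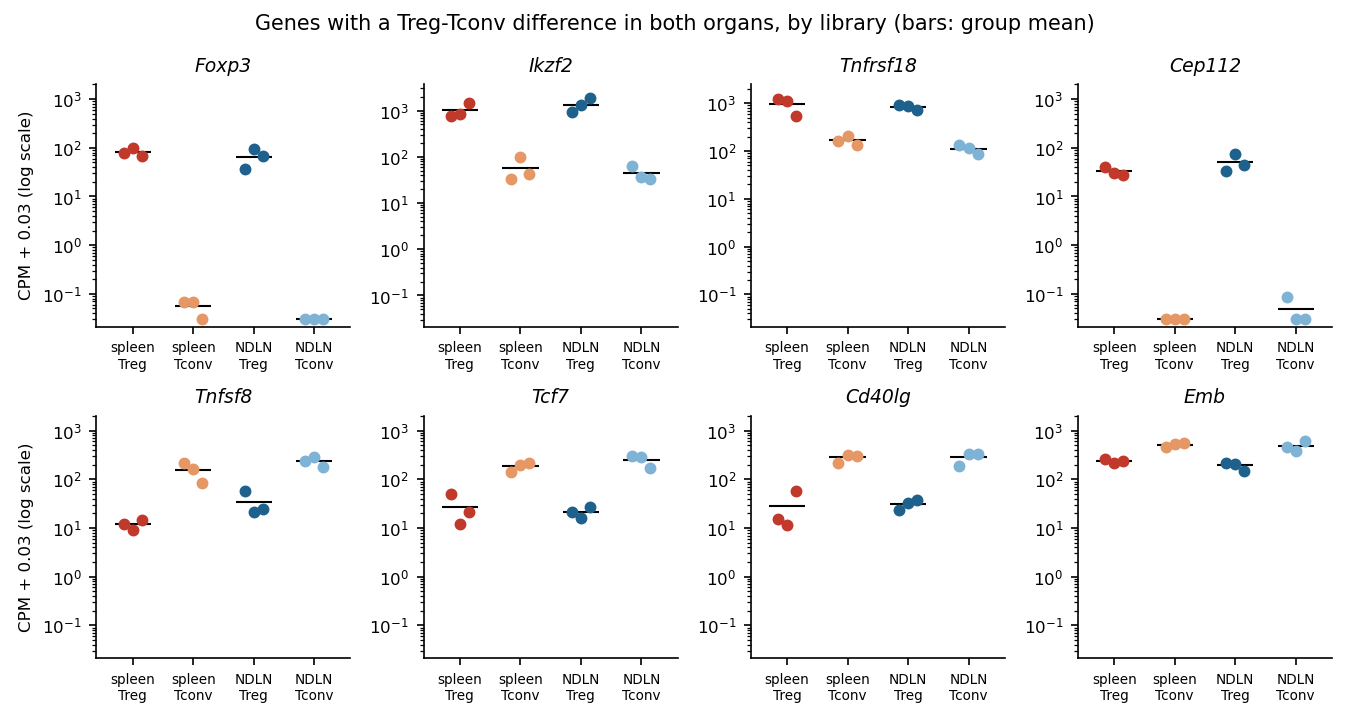
CPM plus 0.03 (log scale) in each library for 8 genes whose Treg and Tconv libraries did not overlap in either organ, with group means as bars. Within an organ edgeR called Foxp3, Ikzf2, Tnfrsf18 and Cep112 in both, Tnfsf8 in the spleen alone and Tcf7 in NDLN alone. Cd40lg and Emb were called in neither organ, only on the average over both. Foxp3, Ikzf2, Tnfrsf18 and Cep112 stand higher and Tnfsf8, Tcf7, Cd40lg and Emb lower in every Treg library than in any Tconv library of the same organ.

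For the shared Treg genes Foxp3 and Tnfrsf18 the promoters are printed to show what the stretches ahead of these genes hold. Each runs from 250 bases before to 50 bases after the start listed by RefSeq on GRCm38.p6, on the gene's own strand. Capitals mark the searched motifs, the CCAAT box CCAAT and the TATA box TATAAA on either strand (a CCAAT box on the opposite strand reads ATTGG). The forkhead motif TGTTTAC and the AP-1 motif TGANTCA were searched as well and were in neither. Of 32851 promoters of this length, 37.4% held CCAAT, 13.6% TATAAA, 3.65% TGTTTAC and 7.81% TGANTCA. The Foxp3 window, at the first of 2 listed starts (chrX:7579426-7579725, plus strand), held 1 CCAAT and 1 TATAAA, and that of Tnfrsf18 (chr4:156026072-156026371, plus strand) held none. Ikzf2 had no entry.
Foxp3: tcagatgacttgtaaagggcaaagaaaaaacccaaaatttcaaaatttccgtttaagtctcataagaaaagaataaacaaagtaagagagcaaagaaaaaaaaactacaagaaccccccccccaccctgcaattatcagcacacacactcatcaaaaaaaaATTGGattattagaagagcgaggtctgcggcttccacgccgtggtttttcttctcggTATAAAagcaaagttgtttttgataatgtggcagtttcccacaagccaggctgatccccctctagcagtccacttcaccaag
Tnfrsf18: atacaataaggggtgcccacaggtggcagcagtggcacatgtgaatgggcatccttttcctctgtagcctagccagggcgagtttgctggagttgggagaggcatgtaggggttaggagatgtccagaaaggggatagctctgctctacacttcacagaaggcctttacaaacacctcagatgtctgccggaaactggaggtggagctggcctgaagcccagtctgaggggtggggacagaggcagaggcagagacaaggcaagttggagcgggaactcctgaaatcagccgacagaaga

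Genes called in one organ alone had the same direction in the other, and for none did the difference between organs pass. In the spleen alone these were Ctla4, the histone gene Hist1h2ae and Tnfsf8, and in NDLN alone Tcf7, H2-Aa and Pglyrp1. Tnfsf8, which encodes CD30 ligand, stood at 12.2, 8.95 and 14.9 CPM in spleen Tregs against 212, 165 and 82.1 in spleen Tconvs, and at 57.4, 20.97 and 25.01 in NDLN Tregs against 235, 289 and 177 in NDLN Tconvs. It was lower in every Treg library of both organs. The fold was 12.7 in the spleen (adjusted p = 0.0235) and 6.79 in NDLN (adjusted p = 0.104), and the difference of differences was -0.91 (unadjusted p = 0.186). The spleen call was lost without spleen Treg replicate 1, 2 or 3 or spleen Tconv replicate 1 (adjusted p 0.0731 to 0.131). Tcf7, whose product TCF-1 sustains naive and memory T cells, had 48.8, 12.1 and 21.1 CPM in spleen Tregs against 141, 195 and 217 in spleen Tconvs, and 21.5, 16.0 and 26.5 in NDLN Tregs against 302, 281 and 173 in NDLN Tconvs. Here too no Treg library reached a Tconv library. The fold was 6.74 in the spleen (adjusted p = 0.0929) and 11.8 in NDLN (adjusted p = 0.0289), with a difference of differences of 0.81 (unadjusted p = 0.241). The NDLN call was lost without NDLN Treg replicate 1, 2 or 3 or NDLN Tconv replicate 1 (adjusted p 0.0604 to 0.282).

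Hist1h2ae was 40.4-fold higher in spleen Tregs than in spleen Tconvs (223 ± 156 against 5.53 ± 1.14 CPM, SD, n = 3 each, adjusted p = 0.0235). In NDLN it was 8.67-fold higher (318 ± 76.8 against 36.6 ± 34.0 CPM, adjusted p = 0.13), and the difference of differences of 2.22 had an unadjusted p of 0.0251 and an adjusted p of 0.916. Its spleen call was lost without spleen Tconv replicate 1 or 3 or NDLN Treg replicate 2 (adjusted p 0.0533 to 0.18). Pglyrp1, which encodes a peptidoglycan recognition protein, had 308, 402 and 291 CPM in spleen Tregs against 107, 119.9 and 84.1 in spleen Tconvs, and 282, 249 and 181 in NDLN Tregs against 29.0, 42.9 and 41.3 in NDLN Tconvs. Its difference was 3.21-fold in the spleen (adjusted p = 0.0734) and 6.29-fold in NDLN (adjusted p = 0.00402). The difference of differences of -0.97 had an unadjusted p of 0.0292 and did not pass. Without spleen Tconv replicate 1 the 8 spleen calls became 0, and without spleen Tconv replicate 3 they became 2.

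Genes that mark Tregs had higher estimates in Tregs in both organs, though few were called within an organ. Of 21 genes of the Treg identity list, all 21 were higher in Tregs in the spleen and all 21 in NDLN, with medians of 3.54 and 3.33 on the log2 scale, beside 0.09 and 0.08 over all genes tested. Within an organ edgeR called 4 of the 21 higher in the spleen and 3 in NDLN (0.0471% of all genes in each organ). Gene by gene, 13 of the 21 differences of differences were negative, with a median of -0.79 beside -0.08. On the average over both organs 8 of the 21 passed (0.651% of all genes were called higher): Foxp3, Ikzf2, Tnfrsf18, Ctla4, Tnfrsf4, Tnfrsf9, Itgae and Lrrc32. Tnfrsf4, which encodes the costimulatory receptor OX40, averaged 1456 ± 491 CPM in spleen Tregs and 176 ± 129 in spleen Tconvs, and 1399 ± 134 in NDLN Tregs and 86.2 ± 97.3 in NDLN Tconvs. Tnfrsf9, which encodes 4-1BB, stood at 421, 242 and 146 CPM in spleen Tregs against 34.7, 14.3 and 2.54 in spleen Tconvs, and at 209, 255 and 198 in NDLN Tregs against 3.17, 0.0768 and 4.43 in NDLN Tconvs. Tregs were higher in every library of both genes. Their average log2 fold changes were 3.53 (SE 0.54, adjusted p = 0.0134) and 5.21 (SE 0.84, adjusted p = 0.0172). Tnfrsf1b, which encodes TNF receptor 2, was 23.7-fold higher in spleen Tregs and 378-fold higher in NDLN Tregs, where NDLN Tconvs had 8 counts in all; its average passed (adjusted p = 0.0116) and its difference of differences of -4.09 did not (unadjusted p = 0.028, adjusted p = 0.916).

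In the TNF receptor and costimulation list 5 of 16 genes passed on the average, all higher in Tregs (0.651% of all genes), and 0 passed for the difference between organs by edgeR, with 2 at an unadjusted p under 0.05 (5.06% of all genes) and 0 called by DESeq2 or limma-voom. Besides Tnfrsf18, Tnfrsf4, Tnfrsf9 and Tnfrsf1b the fifth was Icos, an inducible costimulator. It averaged 1203 ± 369 CPM in spleen Tregs and 244 ± 110.3 in spleen Tconvs, and 1119 ± 241 in NDLN Tregs and 310.2 ± 196 in NDLN Tconvs. The log2 fold change was 2.30 (SE 0.50) in the spleen and 1.85 (SE 0.49) in NDLN, a difference of 0.45 (95% interval -1.02 to 1.91). Its average (2.08, adjusted p = 0.021) did not pass without NDLN Treg replicate 2 (adjusted p = 0.0619).

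Of 18 genes of the tissue-repair Treg list, 17 had higher estimates in Tregs in the spleen and 17 in NDLN (53.5% and 52.5% of all genes). Within either organ edgeR called 0 of the 18 (0.0628% of all genes in each organ). On the average 4 passed, all higher in Tregs (0.651% of all genes): Maf, Ccr3, Itgae and Tnfrsf9. The medians were 3.43 in the spleen and 2.17 in NDLN, or 1.8001 in NDLN with the genes that have a group at 0 placed at the bound of 3 counts; this bound left the medians of the other 16 lists in place. Maf, a transcription factor of effector Tregs, stood at 222, 227 and 184 CPM in spleen Tregs against 43.3, 52.7 and 60.6 in spleen Tconvs, and at 189, 171 and 201 in NDLN Tregs against 46.4, 124 and 50.1 in NDLN Tconvs. Its average log2 fold change was 1.68 (SE 0.27, adjusted p = 0.0164). Ccr3, a chemokine receptor gene, had 52.4, 69.6 and 38.8 CPM in spleen Tregs and 3 counts in spleen Tconvs, and 18.8, 21.1 and 13.4 CPM in NDLN Tregs and 6 counts in NDLN Tconvs. Its ratio was 1288 in the spleen (95% counting interval 441 to 6246) and 171 in NDLN. Itgae, which encodes the integrin CD103, stood at 98.2 ± 26.8 CPM in spleen Tregs against 2.07 ± 3.59 in spleen Tconvs and 96.8 ± 25.7 in NDLN Tregs against 3 counts in all in NDLN Tconvs. Its average adjusted p of 0.0298 was 0.0777 without NDLN Treg replicate 2, and the call was also lost without spleen Treg replicate 2 or 3, NDLN Treg replicate 3 or NDLN Tconv replicate 1 (0.0517 to 0.0592). The suppressive effector list had medians of 3.70 in the spleen and 2.35 in NDLN, and Icos was the single member of 15 that passed.

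Of 27 cell cycle genes, 4 passed on the average, all higher in Tregs (0.651% of all genes). The estimate was positive for all 27 in the spleen and for 25 in NDLN (53.5% and 52.5% of all genes), with medians of 3.07 and 4.02. Within either organ edgeR called 0 of the 27. At an unadjusted p under 0.05 there were 11 in the spleen and 15 in NDLN (6.70% and 10.8% of all genes). Plasma cell transcripts moved with the same groups: the 6 markers summed, in CPM without TMM factors, to 31.0, 2294 and 899 in spleen Tregs against 0.0371, 59.3 and 13.7 in spleen Tconvs, and to 97.2, 3926 and 3403 in NDLN Tregs against 83.0, 30.4 and 2.14 in NDLN Tconvs. In both Treg groups replicates 2 and 3 were above replicate 1 for this sum, as they were for Spc25, Stmn1 and Aurkb. Cdk1, the other called member, did not follow this order in NDLN Tregs (91.0, 113 and 64.3 CPM). Sdc1, which encodes the plasma cell surface marker syndecan 1, was at 0 in all 12 libraries. Without TMM factors, Jchain had 2104 and 798 CPM in spleen Treg replicates 2 and 3, most of the sum. In NDLN Treg replicates 2 and 3 it had 3639 and 2646. Mzb1, on the same scale, had 30.96, 174 and 94.9 CPM in spleen Tregs against 0, 3.03 and 1.58 in spleen Tconvs. In NDLN it had 29.4, 249 and 744 CPM in Tregs against 27.99, 0 and 0.0689 in Tconvs. Tnfrsf17, Derl3 and Prg2 were seen only in Treg replicates 2 or 3, at no more than 38.1 CPM. The part of plasma cells in the cell cycle values was not tested. Spc25, a kinetochore component gene, had 22.4, 44.1 and 121 CPM in spleen Tregs against 0.629, 0.0365 and 13.6 in spleen Tconvs, and 31.1, 199.6 and 95.7 in NDLN Tregs against 1 count in all in NDLN Tconvs. The average adjusted p was 0.023, and it did not pass without NDLN Treg replicate 2 or NDLN Tconv replicate 1 or 3 (adjusted p 0.0732, 0.0515 and 0.05). Stmn1 (adjusted p = 0.041), Cdk1 (0.0361) and the mitotic kinase gene Aurkb (0.0491) passed narrowly. Stmn1 and Cdk1 kept their call in 3 of 12 repeats without 1 library each, and Aurkb kept it only without NDLN Treg replicate 1 (highest adjusted p 0.108, 0.0995 and 0.128, each without NDLN Treg replicate 2). Aurkb and Ect2, a regulator of cell division outside the list, had no count in either Tconv group. Ect2 stood at 42.9, 25.6 and 39.4 CPM in spleen Tregs, at least 864-fold above spleen Tconvs, and at 5.69, 18.9 and 30.3 in NDLN Tregs, at least 346-fold above NDLN Tconvs (average adjusted p = 0.0108). Gsta4, a glutathione transferase gene, likewise had no count in 6 Tconv libraries and stood at 10.3, 49.6 and 37.4 CPM in spleen Tregs and 55.9, 20.5 and 24.5 in NDLN Tregs (average adjusted p = 0.00829).

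Genes of helper function and of the naive state that passed on the average were lower in Tregs (0.447% of all genes). In the list of T cell cytokines and TNF ligands these were 3 of 13, Cd40lg, Il4 and Tnfsf8, while within an organ 1 of 13 was called lower in the spleen and 0 in NDLN by edgeR (4 and 6 were lower at an unadjusted p under 0.05, and 4 and 6 called in either direction by DESeq2), and 4 and 3 had positive estimates. Cd40lg, which encodes the ligand by which helper T cells activate B cells, stood at 15.4, 11.7 and 57.0 CPM in spleen Tregs against 217, 321 and 306 in spleen Tconvs, and at 23.1, 32.9 and 36.7 in NDLN Tregs against 186, 335 and 329 in NDLN Tconvs. Its fold of 10.05 in the spleen and 9.18 in NDLN left a difference of differences of -0.13 (95% interval -1.73 to 1.47), and its average passed (adjusted p = 0.00345) in all 12 repeats without 1 library. Il4, which encodes interleukin 4, was seen in 1 spleen Treg library (1.71 CPM) and had no count in NDLN Tregs, against 34.1, 71.2 and 24.4 CPM in spleen Tconvs and 40.5, 44.9 and 22.5 in NDLN Tconvs. It was at least 835-fold lower in NDLN Tregs and 75.8-fold lower in spleen Tregs (average adjusted p = 0.0361). The call was kept only without spleen Treg replicate 1 or 2 or NDLN Tconv replicate 2 or 3, with a highest adjusted p of 0.103 without NDLN Treg replicate 2.

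In the naive and lymphoid homing list 3 of 16 passed on the average, all lower in Tregs: Tcf7, Lef1 and Dapl1. Within the spleen edgeR called 0 of the 16, although 7 had an unadjusted p under 0.05 and DESeq2 called 5, and in NDLN edgeR called 1. In the spleen 3 and in NDLN 4 of the 16 had positive estimates. Lef1, a partner of Tcf7 in naive T cells, averaged 74.0 ± 27.9 CPM in spleen Tregs and 289 ± 80.9 in spleen Tconvs, and 67.4 ± 42.1 in NDLN Tregs and 313 ± 90.4 in NDLN Tconvs. The log2 fold change was -1.96 in the spleen and -2.21 in NDLN (average adjusted p = 0.0164, and 0.0551 without NDLN Treg replicate 2). Among 14 proximal T cell receptor signalling genes 3 passed on the average, all lower (0.447% of all genes), among them Themis and Txk. Themis, which tunes T cell receptor signals, had 0.798, 8.00 and 16.8 CPM in spleen Tregs against 132, 119.6 and 129 in spleen Tconvs, and 22.6, 5.94 and 13.4 in NDLN Tregs against 240.0, 239 and 169.7 in NDLN Tconvs. The log2 fold changes of -3.89 and -3.95 differed by 0.06 (95% interval -2.30 to 2.41; average adjusted p = 0.0135). Of the other calls here, Dapl1 was kept in 3 of 12 repeats without 1 library and Txk in 1, with highest adjusted p of 0.146 (without NDLN Treg replicate 2) and 0.152 (without spleen Tconv replicate 3).

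Ribosomal protein genes made up 19 of the 57 genes called lower in Tregs on average, from 90 tested (0.447% of all genes were called lower). They took 14.3, 11.4 and 14.6% of counts in spleen Tregs against 23.7, 17.2 and 23.3% in spleen Tconvs, and 18.0, 17.2 and 16.9% in NDLN Tregs against 22.03, 21.2 and 25.5% in NDLN Tconvs. The shares did not overlap in either organ. Of the 90 genes, 83 had lower estimates in spleen Tregs and 85 in NDLN Tregs, against 5917 and 5932 of all 12744 genes. The median log2 fold changes were -0.71 and -0.51. In 32 of the 90 no Treg library reached a Tconv library of its organ, against 197 of all 12744 genes (1.55%). The median difference of differences was -0.24, with 0 of 90 called by edgeR and 5 at an unadjusted p under 0.05. Genes detected per library overlapped between spleen Tregs and spleen Tconvs and did not between NDLN Tregs and NDLN Tconvs, and the part of library complexity in the ribosomal shares was not tested.

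For 18 of the 140 genes called on average the 95% interval of the difference of differences lay wholly within 1 log2 unit of 0, a 2-fold change either way. In 16 of the 18 the average Treg-Tconv difference was itself smaller than that bound, so the interval does not show that both organs share it. Of the 18, 16 were lower in Tregs, among them 11 ribosomal protein genes, mt-Co1 and mt-Nd4, which encode mitochondrial respiratory chain subunits, and Emb. Mitochondrial genes took 4.97 to 10.6% of counts in spleen Tregs, 5.92 to 9.55% in spleen Tconvs, 9.43 to 9.75% in NDLN Tregs and 12.1 to 17.2% in NDLN Tconvs, and the part of this share in the values of mt-Co1 and mt-Nd4 was not tested. Emb, which encodes embigin, a membrane partner of lactate transporters, stood at 267, 215 and 242 CPM in spleen Tregs against 455, 533 and 547 in spleen Tconvs, and at 218, 210.2 and 150.1 in NDLN Tregs against 457, 390 and 613 in NDLN Tconvs. Its log2 fold changes were -1.09 (SE 0.23) and -1.34 (SE 0.23), and their difference was 0.25 (95% interval -0.46 to 0.96). The 2 higher in Tregs were Smc4 and Crip1, a LIM domain protein gene whose log2 fold changes of 0.94 and 0.99 differed by -0.05 (95% interval -0.93 to 0.84). Smc4, a condensin subunit gene, had 371, 524 and 648 CPM in spleen Tregs against 262, 302 and 271 in spleen Tconvs, and 593, 587 and 574 in NDLN Tregs against 355, 255 and 386 in NDLN Tconvs, with a difference of differences of 0.07 (95% interval -0.65 to 0.78).

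Ranked by p, the negative differences between the organs, none of which passed, were led by H2-Aa. H2-Aa encodes a chain of the MHC class II molecule that presents antigen to helper T cells (chr17:34282744-34287823, minus strand). It stood at 165, 335 and 226 CPM in spleen Tregs against 4.25, 63.6 and 69.6 in spleen Tconvs, and at 176, 112 and 86.7 in NDLN Tregs, whereas NDLN Tconvs had 2 counts in all. Tregs were higher in every library of both organs. The difference was 5.28-fold in the spleen (log2 2.40, SE 0.86, adjusted p = 0.587), and in NDLN the ratio was 3538.5 (95% counting interval 980 to 29219, adjusted p = 0.00575). The difference of differences was -9.15 (unadjusted p = 5.29e-05, adjusted p = 0.674). It passed under 3 alternatives, DESeq2 (adjusted p = 1.95e-07), no filter on low counts (edgeR, 0.0433) and leaving out spleen Tconv replicate 1 (edgeR, 0.0126), and under the others the adjusted p reached up to 1.

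The summed MHC class II and B cell markers were likewise higher in every Treg library than in any Tconv library of its organ. The summed level of 7 MHC class II genes, in CPM without TMM factors, was 835 to 2518 in spleen Tregs, 327 to 384 in spleen Tconvs, 479 to 955 in NDLN Tregs and 32.9 to 152 in NDLN Tconvs. H2-Aa is itself a member of this sum. H2-DMa, another member, made up 298 of the 337 CPM in spleen Tconv replicate 1, against 82.3, 195 and 59.7 in spleen Tregs. H2-Eb1, a chain of another class II molecule (unadjusted p = 0.00953, adjusted p = 0.916 for the difference between organs), had no count in NDLN Tconvs and 0, 12.1 and 8.50 CPM in spleen Tconvs, against 52.9, 196 and 38.2 in spleen Tregs and 74.3, 45.7 and 13.8 in NDLN Tregs. The 13 B cell markers summed to 1431 to 3566 in spleen Tregs, 401 to 540 in spleen Tconvs, 1184 to 1416 in NDLN Tregs and 244 to 595 in NDLN Tconvs. This sum overlapped between spleen Tconvs and NDLN Tconvs, where most of it was Ighm. Without TMM factors Ighm had 445, 505 and 387 CPM in spleen Tconvs and 424, 593 and 242 in NDLN Tconvs. Cd79a had 0, 8.83 and 5.58 CPM in spleen Tconvs against 0, 0 and 1.998 in NDLN Tconvs. Blnk had 8.45, 5.12 and 0 against 0.0509, 0 and 0, while Ighd had 0, 0.0394 and 0 against 1.48, 0 and 0.0689. Of these markers Cd79b, Ighd, Ighm and Ms4a1 were called higher in Tregs on average, and Ms4a1, which encodes CD20, stood at 52.6, 39.4 and 53.3 CPM in spleen Tregs, 0, 2.96 and 0 in spleen Tconvs, 53.6, 39.4 and 46.7 in NDLN Tregs and at most 0.0792 in NDLN Tconvs. The 9 dendritic cell markers summed to 69.9 to 158 CPM in spleen Tregs, 15.02 to 72.9 in spleen Tconvs, 53.7 to 155 in NDLN Tregs and 0.0509 to 19.9 in NDLN Tconvs. Most of that sum in Tregs was Ly6d, with 69.9, 147 and 144 CPM in spleen Tregs and 101, 44.3 and 151 in NDLN Tregs. Itgax and Flt3 of the same list had no count in any of the 12 libraries. Siglech had 0, 14.4 and 17.5 CPM in spleen Tconvs and no count in the other groups. Xcr1 had 14.9, 0.0788 and 5.05 CPM in spleen Tconvs and was otherwise seen only in NDLN Treg replicate 2. The remaining members, Zbtb46, Cd209a, Clec9a and Batf3, reached at most 7.22 CPM in any library. The part of other cells in the H2-Aa values was not tested.

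Many of the negative values had the same form. Of the 417 genes at a negative difference and an unadjusted p under 0.05, 216 (51.8%) had no count in NDLN Tconvs, against 9.82% of all genes tested. Slc35a2, which encodes a UDP-galactose transporter, had 15.2, 16.3 and 6.33 CPM in spleen Tregs, 55.4, 5.99 and 11.2 in spleen Tconvs, 14.6, 11.3 and 39.6 in NDLN Tregs and no count in NDLN Tconvs. Rbks, the ribokinase gene, and Bnip3, a mitophagy receptor gene, showed the same pattern, at least 422-fold and at least 433-fold higher in NDLN Tregs. Panx1, which encodes the ATP-releasing channel pannexin 1, had 27.4, 38.5 and 11.2 CPM in spleen Tregs against 0.787, 15.1 and 1.45 in spleen Tconvs, and 15.9, 58.4 and 82.5 in NDLN Tregs against 1 count in all. Among the positive 228, 89 had no count in spleen Tconvs and 92 none in NDLN Tregs. NDLN Tconvs were also the group with the fewest genes detected, and the part of detection in these differences was not tested.

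Nkg7 and Mcrs1, chosen by the same ranking on p, had negative differences with more than 3 counts in every group. Nkg7, a granule protein gene of cytotoxic lymphocytes, stood at 456, 201 and 164 CPM in spleen Tregs against 372, 1195 and 487 in spleen Tconvs, and at 203, 105 and 108 in NDLN Tregs against 60.2, 23.7 and 46.4 in NDLN Tconvs. Spleen groups overlapped, and in NDLN every Treg library was higher. The log2 fold change was -1.32 (SE 0.54) in the spleen and 1.68 (SE 0.54) in NDLN, and the difference of differences of -3.002 (SE 0.76, unadjusted p = 0.00199) was not called by edgeR (adjusted p = 0.916, and 0.456 to 1 over the alternatives other than DESeq2) but was by DESeq2 (adjusted p = 0.00615). The Th1 and cytotoxic list had a median of -1.13 in the spleen and 0.61 in NDLN, 12 of 18 differences of differences were negative, and Nkg7 alone had an unadjusted p under 0.05. The 8 markers of CD8 and NK cells summed to 236 to 600 CPM in spleen Tregs, 486 to 2365 in spleen Tconvs, 226 to 427 in NDLN Tregs and 104 to 174 in NDLN Tconvs. Nkg7 is itself a member, with 471 of the 600 CPM in spleen Treg replicate 1 and 1288 of the 2365 in spleen Tconv replicate 2. The sum is therefore not separate from it. Of the other members, Ncr1 was at 0 in all 12 libraries and Cd8a at 0 in 8 of them. Cd8b1 reached 45.8 CPM in spleen Tconv replicate 1 and 45.7 in NDLN Treg replicate 1. Klrd1 reached 153 in spleen Tconv replicate 3 and 103 in NDLN Tconv replicate 3. Gzma, Klrk1 and Klrb1c were highest in spleen Tconv replicate 2, as Nkg7 was, at 624, 184 and 103 CPM. In NDLN, Gzma had 160, 115 and 62.6 CPM in Tregs against 0, 24.1 and 0.689 in Tconvs. Klrk1 went the other way there, with at most 0.0713 in Tregs against 1.17, 13.0 and 0 in Tconvs. The part of CD8 and NK cells in the Nkg7 values was not tested.

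Mcrs1, a component gene of chromatin remodelling complexes, had 38.9, 15.7 and 18.2 CPM in spleen Tregs against 24.7, 64.1 and 38.7 in spleen Tconvs, and 46.2, 21.7 and 22.9 in NDLN Tregs against 1.67, 0.999 and 3.80 in NDLN Tconvs. Only in NDLN did the groups stand apart. The difference of differences was -4.62 (SE 1.19, unadjusted p = 0.00204), called by DESeq2 (adjusted p = 0.000774) and not by edgeR (adjusted p = 0.916, and 0.301 to 1 over the other alternatives). Psmb2, a proteasome subunit gene that was chosen after its values were seen, was the best expressed of the genes that DESeq2 called with more than 3 counts in every group and a negative value, at 548, 805 and 623 CPM in spleen Tregs, 673, 744 and 627 in spleen Tconvs, 889.9, 856 and 873 in NDLN Tregs and 478, 483 and 374 in NDLN Tconvs. Its difference of differences was -1.02 (SE 0.27, unadjusted p = 0.00262).

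On the positive side Ctla4 had a larger Treg-Tconv difference in the spleen, without passing. Ctla4 encodes the inhibitory receptor that removes costimulatory ligands from antigen-presenting cells (chr1:60887000-60915832, plus strand). It stood at 466, 651 and 387 CPM in spleen Tregs against 8.97, 38.2 and 20.004 in spleen Tconvs, and at 526, 326 and 354 in NDLN Tregs against 156, 203 and 36.7 in NDLN Tconvs. Treg libraries of the organs overlapped each other, whereas spleen Tconvs lay below NDLN Tconvs except that the highest spleen library (38.2) exceeded the lowest NDLN library (36.7). The difference was 22.4-fold in the spleen (adjusted p = 0.0371) and 3.05-fold in NDLN (adjusted p = 0.42). The difference of differences of 2.88 (SE 0.84, 95% interval 1.05 to 4.70, unadjusted p = 0.00497) was not called by edgeR (adjusted p = 0.916, and 0.191 to 1 over the alternatives other than DESeq2) and was by DESeq2 (adjusted p = 0.0137). The spleen call was lost in 7 of 12 repeats without 1 library: without spleen Treg replicate 1, 2 or 3, spleen Tconv replicate 1 or 3, or NDLN Treg replicate 2 or 3 (adjusted p 0.0509 to 0.248). The call on the average (adjusted p = 0.0108) was kept in all 12.

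The promoters of these opposed examples, Ctla4 (chr1:60908775-60909074, plus strand) and H2-Aa (chr17:34287774-34288073, minus strand), are printed for comparison with those of the shared genes, with the same motifs in capitals. The Ctla4 window held 1 TATAAA and no CCAAT, and the H2-Aa window 1 CCAAT, read on the opposite strand as ATTGG, and no TATAAA.
Ctla4: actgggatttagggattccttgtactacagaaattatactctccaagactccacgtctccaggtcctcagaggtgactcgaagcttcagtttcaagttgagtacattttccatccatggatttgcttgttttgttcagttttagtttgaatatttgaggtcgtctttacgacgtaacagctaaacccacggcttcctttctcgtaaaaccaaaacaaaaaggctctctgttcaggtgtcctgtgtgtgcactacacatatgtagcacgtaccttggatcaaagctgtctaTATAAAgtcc
H2-Aa: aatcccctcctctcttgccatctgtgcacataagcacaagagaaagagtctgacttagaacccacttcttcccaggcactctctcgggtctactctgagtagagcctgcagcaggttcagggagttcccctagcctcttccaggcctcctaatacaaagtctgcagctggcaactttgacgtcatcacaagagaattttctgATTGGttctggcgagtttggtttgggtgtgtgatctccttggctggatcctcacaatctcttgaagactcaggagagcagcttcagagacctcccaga

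**Figure D4:**
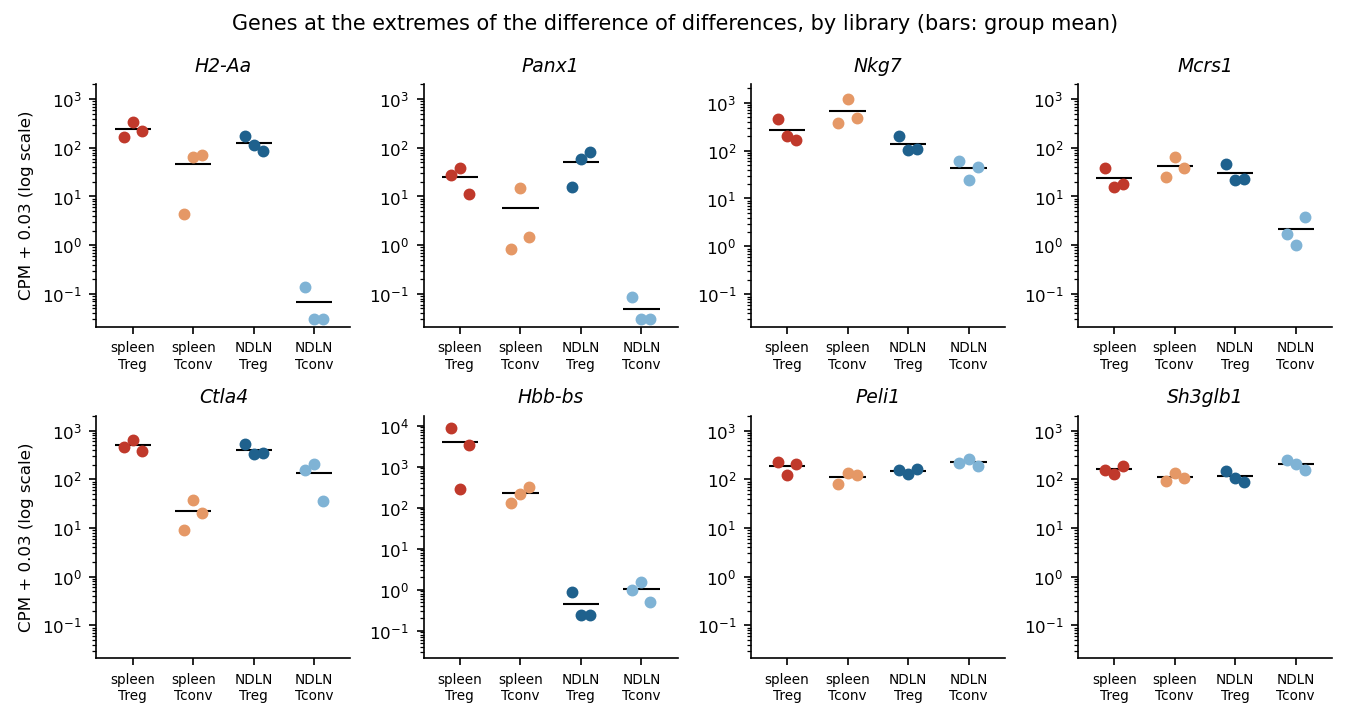
CPM plus 0.03 (log scale) in each library for 8 genes at either end of the difference of differences, with group means as bars. H2-Aa, Panx1, Nkg7 and Mcrs1 lie lowest in NDLN Tconvs, Ctla4 lies lowest in spleen Tconvs, and Hbb-bs separates spleen from NDLN libraries; none of the 8 passed the test of the difference between organs.

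Haemoglobin genes also had positive values. Hbb-bs, which encodes adult beta globin of red cells, stood at 8579, 283 and 3402 CPM in spleen Tregs against 129.6, 216 and 325 in spleen Tconvs, and at 0.845, 0.207 and 0.216 in NDLN Tregs against 0.946, 1.54 and 0.475 in NDLN Tconvs. Spleen libraries were all above NDLN libraries, and spleen Treg replicate 2 lay within the range of spleen Tconvs. The difference of differences was 5.45 (SE 1.36, unadjusted p = 0.00175), not called by edgeR (adjusted p = 0.916, and 0.164 to 1 over the alternatives other than DESeq2) but called by DESeq2 (adjusted p = 0.00597). Hbb-bt, its neighbour, had 5.99 (SE 1.54, unadjusted p = 0.00224 by edgeR, and again called by DESeq2 alone, adjusted p = 0.00493), and reads shared by near-identical globin genes may be split between them by the counting. The erythroid list, with 8 of its 9 markers found, summed to 1228 to 23822 CPM in spleen Tregs, 361 to 1171 in spleen Tconvs, 3.08 to 14.2 in NDLN Tregs and 2.55 to 20.9 in NDLN Tconvs. The part of red cell RNA in these values was not tested.

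Genes of moderate level with positive differences included Peli1, Sh3glb1, Hltf and Rchy1. Peli1, a ubiquitin ligase gene that limits T cell activation, had 223, 125 and 205 CPM in spleen Tregs against 79.8, 133 and 120.2 in spleen Tconvs, and 157, 126 and 163 in NDLN Tregs against 214, 259.9 and 191 in NDLN Tconvs. Groups overlapped in the spleen, and in NDLN every Treg library was lower. Its log2 fold change was 0.73 in the spleen and -0.58 in NDLN, a difference of 1.31 (95% interval 0.39 to 2.23, unadjusted p = 0.00916). Sh3glb1, a membrane-curving protein gene, had a difference of 1.34 (95% interval 0.41 to 2.27), and Hltf, a DNA translocase gene, 2.03 (95% interval 0.56 to 3.50). Rchy1, a ubiquitin ligase gene, was close to level in the spleen (113 ± 23.8 CPM in Tregs and 132 ± 75.0 in Tconvs) and 44.1 ± 5.57 in NDLN Tregs against 154 ± 8.80 in NDLN Tconvs, a difference of 1.58 (95% interval 0.41 to 2.74). For these 4 genes the adjusted p was 0.916.

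Ehd3, an endocytic recycling gene, was lower in Tregs of both organs and passed on the average (adjusted p = 0.0306), with 2.48, 5.35 and 6.22 CPM in spleen Tregs against 20.2, 25.8 and 14.1 in spleen Tconvs. NDLN Tregs had 2 counts in all, against 28.4, 33.7 and 8.31 CPM in NDLN Tconvs, a ratio of 818 (95% counting interval 227 to 6758). The average call was kept only without NDLN Tconv replicate 2 or 3, with a highest adjusted p of 0.103 without NDLN Treg replicate 2. Esco2, a cohesin acetyltransferase gene, was higher in Tregs of both organs (average adjusted p = 0.0243), with 24.4, 37.0 and 127 CPM in spleen Tregs and no count in spleen Tconvs, and 24.7, 32.9 and 65.4 in NDLN Tregs against 0.223, 3.30 and 0 in NDLN Tconvs. It was at least 1507-fold higher in spleen Tregs and 34.9-fold higher in NDLN Tregs. Its average call was lost without spleen Treg replicate 3, spleen Tconv replicate 3, NDLN Treg replicate 2 or NDLN Treg replicate 3 (adjusted p 0.0512 to 0.066).

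Of the 17 gene lists, edgeR called no member for the difference between organs in any. DESeq2, which called 3.84% of all genes, called 4 of 27 cell cycle genes, 2 of 15 suppressive effector genes and 1 gene each in the lists of Treg identity, T cell cytokines, Th1 and cytotoxic, Th2 and Th17, interferon response, heat shock, and glycolysis and hypoxia. In the other 8 lists it called none, and limma-voom called 0 in any. T cell receptor activation and immediate early genes had a positive difference of differences in 20 of 22, where 47.8% of all genes were positive, with a median of 0.60 beside -0.08. By edgeR 0 of the 22 passed, 0 had an unadjusted p under 0.05, and DESeq2 and limma-voom called 0. Their Treg-Tconv medians were 0.21 in the spleen and -0.82 in NDLN. Nr4a1, an orphan receptor gene induced by T cell receptor signals, had 56.5, 22.2 and 19.8 CPM in spleen Tregs against 21.9, 18.9 and 9.33 in spleen Tconvs, and 33.2, 12.9 and 23.0 in NDLN Tregs against 34.8, 39.6 and 19.8 in NDLN Tconvs, a difference of 1.43 (95% interval -0.89 to 3.74). Levels overlapped in both organs. Tnfaip3, which encodes the NF-kappaB inhibitor A20, averaged 160.1 ± 58.9 CPM in spleen Tregs and 242 ± 122 in spleen Tconvs, and 66.2 ± 64.7 in NDLN Tregs and 217 ± 93.9 in NDLN Tconvs. Its difference of differences was 1.11 (95% interval -0.89 to 3.11).

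Glycolysis and hypoxia genes had medians of 0.71 in the spleen and 0.66 in NDLN, with 14 and 12 of 17 positive, but 13 of the 17 differences of differences were negative, with a median of -0.70, and 2 had an unadjusted p under 0.05. The interferon response genes had medians of 0.13 in the spleen and -0.40 in NDLN. Heat shock genes stood at 0.58 and -0.19, tissue homing and adhesion genes at 0.44 and 0.94, IL-2 and STAT5 signalling genes at 0.16 and 0.87, follicular helper genes at 0.09 and -0.92, and Th2 and Th17 genes at 1.40 and 0.85. Of the IL-2 list 0 of 15 passed on the average by edgeR, with 7 at an unadjusted p under 0.05 (13.7% of all genes), 5 called by DESeq2 (10.6%) and 2 by limma-voom (3.3%). Il2rb, the beta chain of the IL-2 receptor, had 131, 126 and 41.5 CPM in spleen Tregs against 23.8, 39.5 and 30.8 in spleen Tconvs, and 112, 54.5 and 83.3 in NDLN Tregs against 0.0557, 7.34 and 1.27 in NDLN Tconvs. Tregs were higher in every library, and the difference of differences was -3.17 (95% interval -6.37 to 0.03). Il2ra, the alpha chain by which Tregs are often recognised, had 209.8, 239.6 and 198 CPM in spleen Tregs against 0, 37.5 and 1.87 in spleen Tconvs, and 182, 345 and 315 in NDLN Tregs against 0, 0 and 15.8 in NDLN Tconvs, a difference of -1.71 (95% interval -7.62 to 4.20).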

How the data were processed

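RNA was sequenced in 21 libraries, and the 12 of spleen and NDLN were analysed. The deposited table holds an integer read count for each of 49510 gene IDs, without normalization, of which 49326 matched GENCODE M21. Per the submitters' processing notes, CASAVA 1.8.2, HISAT2, HTSeq 0.6.0 and the build mm10 were used; how strand and multiply mapped reads were handled is not given in the sources used here.

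Genes were kept by filterByExpr (minimum count 10, minimum total 15) and fitted in edgeR 4.0.16 (R 4.3.3) with 1 coefficient per group, TMM factors and robust quasi-likelihood tests. P-values were adjusted by Benjamini-Hochberg over all 12744 genes, with a call at an adjusted p under 0.05. Contrasts were the Treg-Tconv difference in each organ, their difference and their mean. SEs come from the fold change and F. DESeq2 1.42.0, limma-voom (limma 3.58.1) and other settings were alternatives. A fold against a group at 0 uses 3 counts over the group, and a ratio on 1 to 3 counts carries an exact 95% Poisson interval, for counting error only. The tests were tried on simulated counts. Success was required only at a dispersion far below that of these data, so that requirement says nothing of power here.

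The comparison, 17 programme lists and 11 marker lists were chosen with earlier results of these data known. Genes were named as the 10 at either end of the difference by p and those called in both organs or in 1. The 10 highest and 10 lowest called on the mean were named as well. All of these had at least 20 CPM in the highest group, and predicted, ribosomal, mitochondrial and receptor-segment genes were left out. List members with the smallest p and 10 fixed genes were named without these filters. Gm17828, Psmb2, Smc4, Crip1, mt-Co1, mt-Nd4, Lrrc32 and the marker genes were named outside this rule after their values were seen. The deviations of same-numbered libraries in 18 pairs between groups correlated weakly (-0.0216 to 0.0984), none above 0.1, so numbers were not taken as pairs. Some results are not reported here.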

Additional observations from a re-analysis of the deposited data

Results flagged for a closer look

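In 7 genes described here every Treg library stood on one side of the Tconv libraries in the spleen and on the other side in NDLN, a reversal that drew attention to them. The test of the difference itself passed for none of the 7 by edgeR (adjusted p = 0.916 for each), while DESeq2 called Tgfb1 (adjusted p = 0.0232, against 0.596 to 1 over its other alternatives), and over all genes 13 (0.102%) and 17 (0.133%) showed such a reversal in either order. Of the 7, 6 were picked for a mean of at least 50 CPM in some group, and Tgfb1 as a member of the gene lists.

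Helz, a helicase gene, Synj2bp, a mitochondrial outer membrane protein gene, and Tgfb1, a suppressive cytokine gene, stood higher in spleen Tregs than in spleen Tconvs and lower in NDLN Tregs than in NDLN Tconvs. Helz stood at 25.2, 39.9 and 27.4 CPM in spleen Tregs against 10.7, 19.5 and 24.8 in spleen Tconvs, and at 26.2, 44.6 and 37.8 in NDLN Tregs against 60.8, 54.3 and 75.7 in NDLN Tconvs, a difference of differences of 1.56 on the log2 scale. Synj2bp had 1.47. For Tgfb1 the fitted value of 9.69 rests on few counts: spleen Tregs had 2.06, 1.68 and 2.49 CPM and spleen Tconvs 0.393, 0 and 0, against 0.0889, 0.103 and 0.0719 in NDLN Tregs and 10.9, 0.192 and 4.12 in NDLN Tconvs.

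The reverse order was seen for Rex1bd, Rnps1, Ccnt1 and Sap18. Rnps1, which encodes a splicing factor of the exon junction complex, stood at 27.2, 46.1 and 27.6 CPM in spleen Tregs against 116, 58.4 and 46.2 in spleen Tconvs, and at 40.5, 55.9 and 48.0 in NDLN Tregs against 33.7, 25.9 and 23.7 in NDLN Tconvs, a difference of -1.92. Sap18, a corepressor subunit gene, had 211, 193 and 231 CPM in spleen Tregs against 246, 236 and 276 in spleen Tconvs, and 265, 255 and 242 in NDLN Tregs against 208, 227 and 212 in NDLN Tconvs, a difference of -0.50. The cyclin T1 gene Ccnt1 had a difference of -2.46 and Rex1bd one of -1.14.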

How the results depend on the processing

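The number of genes called for the difference between organs was 0 under every setting except DESeq2 (490), no filter on low counts (1, H2-Aa), and the repeats without 1 library, where it ranged from 0 to 9; 9 were called without NDLN Tconv replicate 3, 1 without spleen Tconv replicate 1 (H2-Aa) and 1 without spleen Treg replicate 3 (Dapl1). The Treg-Tconv difference in the spleen (8 genes) had 470 calls with DESeq2, 137 with limma-voom, 25 without the filter, 20 at an adjusted p under 0.1, 13 among genes with a mean of at least 20 CPM (a setting added after the data were seen) and 0 to 34 without 1 library. In NDLN (8) there were 992 with DESeq2, 151 with limma-voom, 45 with all 21 libraries in the fit, 17 without the filter and 5 to 31 without 1 library. The average over both organs (140) had 1350 with DESeq2, 420 with limma-voom, 337 at an adjusted p under 0.1, 225 with at least 5 CPM in 3 libraries and 34 to 167 without 1 library. Genes called in both organs (5) numbered 188 with DESeq2, 48 with limma-voom, 8 without the filter and 0 to 15 without 1 library. The lowest counts came without spleen Tconv replicate 1 for the spleen and both organs, and without NDLN Treg replicate 2 for the average and, tied with NDLN Treg replicate 3, for NDLN. With a replicate block, which the labels do not show to pair samples, the counts were 0 for the difference, 13 in the spleen, 9 in NDLN, 151 on average and 4 in both organs; 9 of 12 libraries correlated best with another of their own number, a hint from the data and not the design. DESeq2 kept 138 and limma-voom 135 of the 140 genes called on average. No named gene that was called under either setting changed sign. The cause of these shifts was not tested. At a biological coefficient of variation of 1.45, genes of low level were estimated with wide error.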

Other observations

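Markers of other cell types were summed in CPM without TMM factors. Macrophage and monocyte markers summed to 24.4 to 51.0 in spleen Tregs, 0.0742 to 31.5 in spleen Tconvs, 16.0 to 63.6 in NDLN Tregs and 0 to 18.05 in NDLN Tconvs. Neutrophil markers were high in 1 library, spleen Treg replicate 2 (299.9), and at most 29.9 in the others. Platelet markers reached at most 11.1 in any library, and stromal and endothelial markers 11.9 to 79.0. Of the sex-linked genes, Eif2s3y, which lies on the Y chromosome, was detected in all 12 libraries, and Xist in spleen Treg replicate 3 alone (6.29).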
